A study of Mus musculus with 9 samples.

Results

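The genes described here are 10 regulators of late thymocyte maturation: Nkap, Hdac3, Ncor1, Zfp335, Map3k7, Bptf, Dnmt1, Cbfb, Tgfbr2 and Ikbkb. They were chosen by name, as genes whose loss in mice blocks T cell maturation after positive selection or the survival of recent thymic emigrants. All 10 were found among the 53715 gene rows of the table, 1 row each, and all 10 passed the filter on low counts that left 17351 genes for testing. RNA-seq was made from thymus of C57BL/6 mice aged 6 to 8 weeks, from FACS-sorted cells positive for TCRβ, CD69, CD24, CD4 and CD8. The 3 WT samples carry the genotype label WT and no further detail of alleles. The 2 SRSF1KO samples are Srsf1fl/flLckcre/+, in which a Cre recombinase under control of Lck, a T lineage kinase gene, removes loxP-flanked Srsf1. Which Lck promoter drives Cre, and whether WT mice carried Cre or loxP sites, is not given in the sources used here. Each library held between 36026006 and 38985285 counts, and each regulator had between 748 and 10630 counts in a library. Sex-linked transcripts split the libraries into 2 WT and 1 SRSF1KO of a female pattern and 1 WT and 1 SRSF1KO of a male pattern. The labels do not say that replicates came from separate animals. The 2 SRSF1KO libraries differ in sex pattern, and WT replicate 2 differs from WT replicates 1 and 3, so these are not repeats of the same source. Whether WT replicates 1 and 3 share a source is not known. The p-values measure the spread between these 5 libraries, which may in part be technical.

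After positive selection a thymocyte has to survive, stop being double positive, change its surface proteins and gain the ability to leave the thymus. The regulators act at several layers of that step. NKAP, HDAC3 and NCOR1 work in transcriptional repression: HDAC3 is the deacetylase at the core of NCoR corepressor complexes, NCOR1 is a scaffold protein of such complexes, and NKAP is a nuclear repressor that binds HDAC3. ZFP335 is a zinc finger transcription factor, BPTF is the large reader subunit of the NURF nucleosome remodeller, DNMT1 copies DNA methylation onto new strands, and CBFβ is the shared partner of the RUNX DNA-binding proteins. TGFBR2 is the ligand-binding receptor of TGF-β, and MAP3K7 (TAK1) and IKBKB (IKKβ) are kinases of the route to NF-κB.

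None of the 10 regulators changed in SRSF1KO at the threshold used, while Srsf1 itself fell. Levels are given as CPM, the count of a gene scaled to a common library size after TMM normalisation, and the test was edgeR's quasi-likelihood test with Benjamini-Hochberg adjustment over all 17351 genes and a threshold of 0.05. The Srsf1 level of the WT libraries was 96.9 to 122.7 CPM and that of the SRSF1KO libraries 30.9 and 42.6 CPM (log2 fold change −1.55, adjusted p = 0.0483), and with any 1 library left out the adjusted p was 0.0509 to 0.220. No regulator was called lower and none higher, where 0.265% of all genes tested were called. One of the 10, Nkap, had an unadjusted p under 0.05, against 14.4% of all genes. With DESeq2, which called 5.83% of genes, the count of regulators called was also 0, and again 1 had an unadjusted p under 0.05. Estimates were split evenly, 5 positive and 5 negative, and their median log2 fold change was 0.07 beside −0.01 over all genes tested. The log2 fold changes ran from −0.28 for Tgfbr2 to 0.53 for Nkap. Below, an error beside a CPM mean is the SD (n = 3 for WT and n = 2 for SRSF1KO), an error beside a log2 fold change is the SE, and adjusted p-values are edgeR's unless another tool is named.

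**Figure D1:**
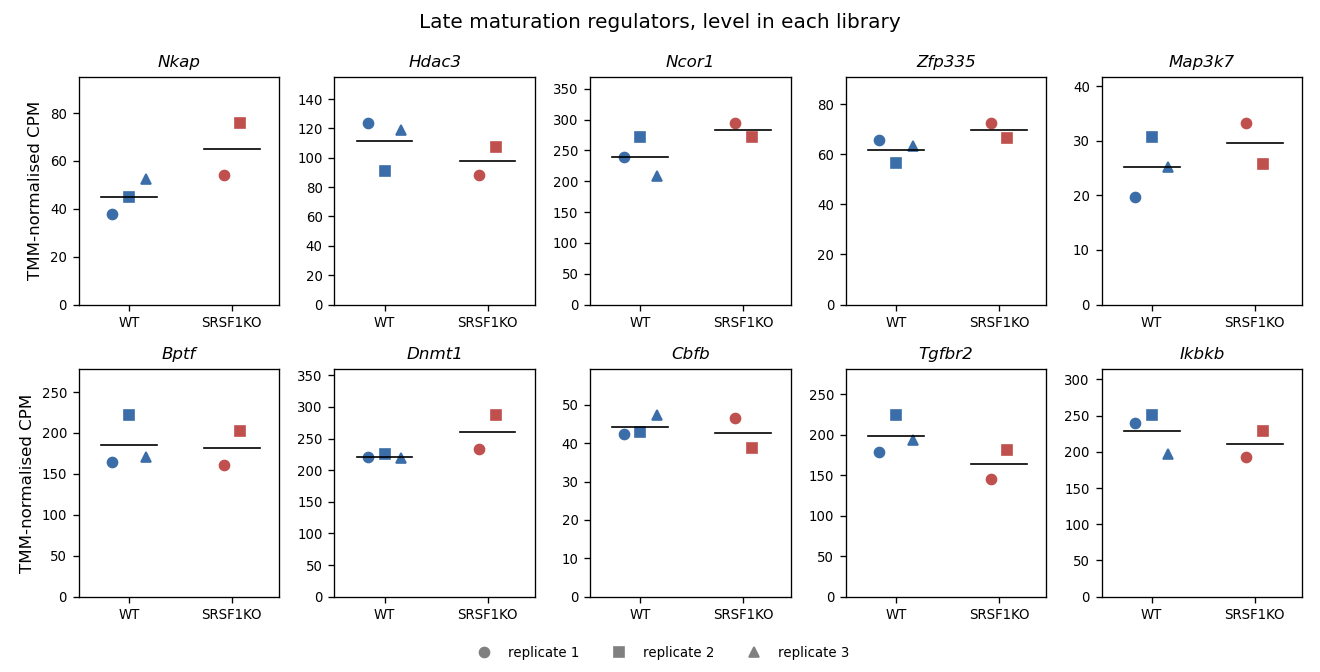
TMM-normalised CPM (y axes, linear from 0, each panel with its own scale) of the 10 regulators in each WT (blue) and SRSF1KO (red) library, with black bars at group means and symbol shapes for replicate numbers. Both SRSF1KO points lie above all WT points for Nkap, Ncor1, Zfp335 and Dnmt1, and the groups overlap in the other panels.

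In 4 of the 10 regulators (Nkap, Ncor1, Zfp335 and Dnmt1) both SRSF1KO libraries lay above all WT libraries, and in 0 both lay below. Among all genes tested 15.2% lay above and 17.8% below, 32.9% in all. The gaps were small: for Ncor1 the lower SRSF1KO library stood at 272.5 CPM and the highest WT library at 271.9 CPM. For 9 of the 10, all but Nkap, the 95% interval of the log2 fold change lay within 1 unit of 0, as did the interval of 41.6% of all genes. Standard errors of the regulators ran from 0.11 to 0.24 on the log2 scale, with a median of 0.15 against 0.19 over the 9932 genes that averaged 5 CPM or more. To pass with its own standard error, a regulator needed an absolute log2 fold change of at least 0.81 (Dnmt1) to 1.77 (Map3k7), since the last gene called had an unadjusted p of 0.000128. These limits belong to the edgeR fit with 3 and 2 libraries, in which smaller differences of a regulator did not pass. On the same libraries DESeq2 called Rbpj and Runx1, described below, at log2 fold changes of 0.48 and 0.50. A missed threshold does not show equal levels.

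**Figure D2:**
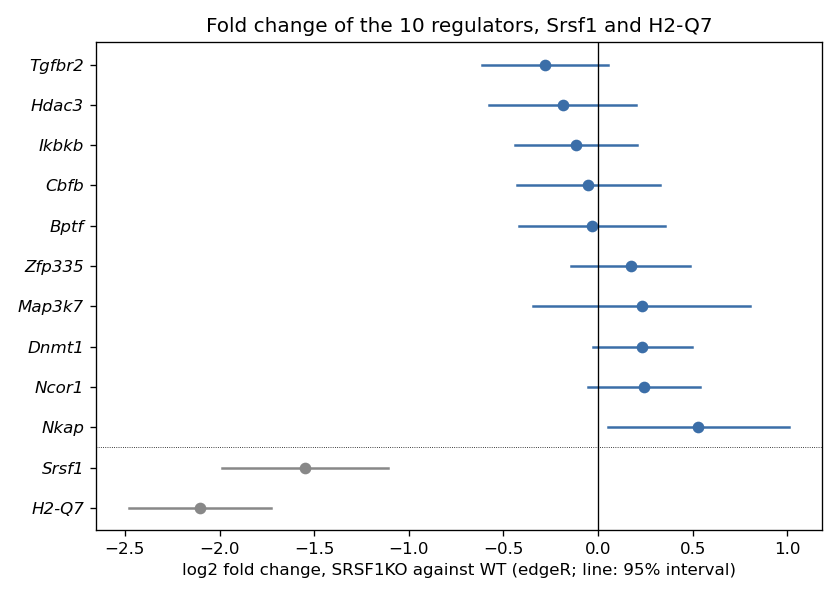
Log2 fold change of SRSF1KO against WT (x axis) for the 10 regulators in order of estimate (blue), and for Srsf1 and H2-Q7 (grey), with lines for the 95% interval. The interval of Nkap starts at 0.05 and those of the other 9 regulators cross 0, while the intervals of Srsf1 and H2-Q7 lie wholly below −1.

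Start regions are shown for 3 regulators because a RUNX protein, the partner of CBFβ, is among the genes described below. RefSeq promoters of GRCm38.p6 (250 bases before to 50 after a start) were found for 8 regulators, all but Hdac3 and Ikbkb, in 11 windows. Those windows held a median of 22 CpG sites, from 2 to 39, against 7 over all 32851 windows of the table, and their median GC content was 63.0% against 52.7%. All windows together cover 27025 genes and were not limited to genes expressed in these libraries, as the regulators are. TGTGGT, 1 form of the RUNX core motif, was the only sequence searched, on both strands. Other forms were not searched, so a window without TGTGGT may hold another form. TGTGGT was in 2 of the 11 windows (18.2%), 1 of Map3k7 and 1 of Ncor1, against 16.8% of all windows. The 250 bases before the start are given 5′ to 3′ on the gene's strand for both and for Nkap, the regulator with the largest estimate. The Nkap window holds no match to TGTGGT. Capitals mark TGTGGT.
Map3k7, before a start within the annotated gene, chr4:31963857-31964106, + strand: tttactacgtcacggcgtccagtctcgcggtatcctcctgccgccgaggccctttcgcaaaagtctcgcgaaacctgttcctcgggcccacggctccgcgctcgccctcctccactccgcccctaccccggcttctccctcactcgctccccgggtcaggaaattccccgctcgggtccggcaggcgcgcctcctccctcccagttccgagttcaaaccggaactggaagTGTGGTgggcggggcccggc
Ncor1, before a start within the annotated gene, chr11:62438516-62438765, − strand: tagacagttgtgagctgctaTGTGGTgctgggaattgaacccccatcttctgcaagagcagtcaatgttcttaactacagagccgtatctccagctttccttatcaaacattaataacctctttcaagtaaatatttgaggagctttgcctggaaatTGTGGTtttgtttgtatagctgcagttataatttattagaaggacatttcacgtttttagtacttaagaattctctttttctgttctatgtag
Nkap, chrX:37126513-37126762, + strand: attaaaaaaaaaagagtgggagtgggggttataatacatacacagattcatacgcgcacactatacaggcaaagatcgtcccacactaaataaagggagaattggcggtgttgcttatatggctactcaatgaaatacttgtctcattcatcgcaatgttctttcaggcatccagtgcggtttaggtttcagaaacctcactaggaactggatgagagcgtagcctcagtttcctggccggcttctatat
The Ncor1 window holds TGTGGT at 2 places and Map3k7 at 1. The printed Ncor1 window is the internal one of its 2 windows, with 2 CpG sites and a GC content of 38.3%. The other, at the annotated 5′ end of Ncor1, has 36 CpG sites, a GC content of 72.3% and 0 matches to TGTGGT. A match in these windows is a description of the letters, and binding was not measured in the table used here.

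Among the corepressor genes, Nkap showed the largest difference of the 10 and Hdac3 none beyond its spread. Nkap (ENSMUSG00000016409.4, chromosome X, 37126763 to 37150746, GRCm38.p6) was measured at 37.9, 45.0 and 52.5 CPM in the WT libraries, in order of replicate number here and below, and the SRSF1KO libraries gave 54.3 and 76.0 CPM. SRSF1KO replicate 1 was barely above the highest WT library, and replicate 2 was clearly higher. The group means were 45.1 ± 7.29 CPM (SD, n = 3) and 65.2 ± 15.4 CPM (SD, n = 2), and the fitted difference was 0.53 ± 0.20 on the log2 scale (SE; 95% interval 0.05 to 1.01; edgeR, unadjusted p = 0.0340, adjusted p = 0.305). It was 0.29 without SRSF1KO replicate 2 and 0.75 without SRSF1KO replicate 1. Because Nkap is X-linked and the libraries carry both sex patterns, it was also read within each: the log2 difference was 0.77 between libraries of the female pattern and 0.27 between those of the male pattern.

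Hdac3 (ENSMUSG00000024454.15, chromosome 18, 37936971 to 37955015) measured 123.9, 91.0 and 118.7 CPM in the WT libraries, against 87.9 and 107.5 CPM in the SRSF1KO libraries. WT replicate 2 was close to the lower SRSF1KO library, and the groups overlapped. Its log2 fold change was −0.19 ± 0.17 (SE; 95% interval −0.57 to 0.20; adjusted p = 0.695). Ncor1 (ENSMUSG00000018501.17, chromosome 11, 62315663 to 62457414), for which the stretch before an internal start is printed above, measured 238.8, 271.9 and 209.2 CPM in the WT libraries, against 294.9 and 272.5 CPM in the SRSF1KO libraries. WT replicate 2 and SRSF1KO replicate 2 were almost level. The log2 fold change was 0.24 ± 0.13 (SE; 95% interval −0.05 to 0.54; adjusted p = 0.442). The annotated Akap14 (at most 54 counts in a library) overlaps Nkap, and Ttc19 (429 to 564 counts) overlaps Ncor1. The strand setting of the counting is not given in the sources used here, and reads of overlapping genes cannot be told apart.

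Of 5 further genes of the corepressor complexes and their DNA-bound partners (Tbl1x, Tbl1xr1, Gps2, Cir1, Rbpj), edgeR called none in either direction (2 at an unadjusted p under 0.05), and the median log2 fold change was 0.15. Rbpj, the DNA-binding protein of the Notch pathway, had the smallest p: 56.0 ± 5.26 CPM (WT) against 77.4 ± 2.20 CPM (SRSF1KO), a difference of 0.47 ± 0.14 on the log2 scale (SE; adjusted p = 0.200), and it passed with DESeq2 (adjusted p = 0.0411). Cir1, a corepressor that links RBPJ to deacetylases, stood at 29.0 ± 1.46 and 41.7 ± 10.2 CPM (log2 fold change 0.53 ± 0.20, adjusted p = 0.293).

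Zfp335 and Bptf, regulators that act on chromatin through other complexes, did not pass the test. Zfp335 (ENSMUSG00000039834.17, chromosome 2, 164891882 to 164912585) measured 65.5, 56.6 and 63.3 CPM in the WT libraries, against 72.6 and 66.6 CPM in the SRSF1KO libraries. Both SRSF1KO libraries were above WT, the closer one at 66.6 against 65.5 CPM. Its log2 fold change was 0.17 ± 0.13 (SE; 95% interval −0.14 to 0.48; adjusted p = 0.637). The lncRNA Zfp335os, with 185 to 346 counts in a library, overlaps it. Among 5 partners of Zfp335 in H3K4 methyltransferase and coactivator complexes (Ash2l, Rbbp5, Wdr5, Dpy30, Ncoa6), none was called (1 at an unadjusted p under 0.05) and the median was 0.09. Rbbp5, a core subunit of these methyltransferase complexes, stood at 69.8 ± 2.49 CPM (WT) against 104.3 ± 7.04 CPM (SRSF1KO), a log2 fold change of 0.58 ± 0.12 with an adjusted p = 0.104, and DESeq2 called it (adjusted p = 0.00112). Ash2l, another core subunit, stood at 0.31 ± 0.21 (adjusted p = 0.579).

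Bptf (ENSMUSG00000040481.17, chromosome 11, 107033081 to 107132147) measured 164.1, 222.1 and 170.9 CPM in the WT libraries, against 161.1 and 202.4 CPM in the SRSF1KO libraries. In each group replicate 2 was the highest library, and the groups overlapped. The log2 fold change was −0.03 ± 0.16 (SE; 95% interval −0.42 to 0.35; adjusted p = 0.970), the estimate nearest 0 of the 10. Of 5 NURF partners 4 were tested and none was called (1 at an unadjusted p under 0.05), with a median of −0.01, and Smarca1 had 0 counts in all 5 libraries. Hmgxb4 stood at 0.46 ± 0.18 (adjusted p = 0.319) and the histone-binding subunit Rbbp7 at −0.31 ± 0.14 (adjusted p = 0.381).

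Dnmt1 was the steadiest regulator among WT libraries. Dnmt1 (ENSMUSG00000004099.16, chromosome 9, 20907206 to 20959888) stood at 220.4, 225.2 and 219.3 CPM in WT, a coefficient of variation of 1.41%, and at 233.3 and 287.5 CPM in SRSF1KO. SRSF1KO replicate 2 was high and replicate 1 lay just above WT. The log2 fold change was 0.23 ± 0.11 (SE; 95% interval −0.03 to 0.49; adjusted p = 0.401), and 0.09 without SRSF1KO replicate 2. Of 8 partners in DNA methylation and its readout or removal (Uhrf1, Dnmt3a, Dnmt3b, Tet1, Tet2, Tet3, Mbd1, Mbd2) none was called (2 at an unadjusted p under 0.05), and the median was −0.08. Tet2, which oxidises methylcytosine, stood at 51.1 ± 7.19 CPM (WT) against 73.5 ± 11.5 CPM (SRSF1KO), a log2 fold change of 0.52 ± 0.17 with an adjusted p = 0.249. The de novo methyltransferase gene Dnmt3a stood at 204.6 ± 4.51 and 168.9 ± 14.0 CPM (−0.28 ± 0.10, adjusted p = 0.278). DNMT1 is most abundant in cycling cells, and the summed level of 10 proliferation genes was 1324 to 1573 CPM in WT and 1599 to 1605 CPM in SRSF1KO. The sum hides a split list, with 6 positive and 4 negative estimates. The negative ones were Mcm2 (−0.33), Mcm5 (−0.30), Mcm3 (−0.20) and Pcna (−0.18). The part of these genes in the Dnmt1 values was not tested.

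Cbfb showed no difference beyond its spread, whereas Runx3 lay below WT and Runx1 above. Cbfb (ENSMUSG00000031885.14, chromosome 8, 105170674 to 105217989) measured 42.3, 43.0 and 47.4 CPM in the WT libraries, against 46.6 and 38.7 CPM in the SRSF1KO libraries, with the SRSF1KO libraries on either side of WT replicates 1 and 2. The log2 fold change was −0.05 ± 0.16 (SE; 95% interval −0.43 to 0.33; adjusted p = 0.938). Runx3, the RUNX gene of the CD8 lineage, measured 118.7, 102.4 and 110.9 CPM in the WT libraries, against 38.3 and 57.75 CPM in the SRSF1KO libraries. Both SRSF1KO libraries were far below WT, yet the log2 fold change of −1.20 ± 0.19 (SE; 95% interval −1.65 to −0.76) missed the threshold (adjusted p = 0.0637). Runx1, the RUNX gene of earlier thymocytes, measured 140.3, 154.2 and 126.0 CPM in the WT libraries, against 190.1 and 201.8 CPM in the SRSF1KO libraries, all above WT (log2 fold change 0.48 ± 0.12, adjusted p = 0.136). The CPM ratio of Runx3 to Runx1, a within-library measure that needs no scaling between libraries and, without gene lengths, says nothing of transcript numbers, was 0.846, 0.664 and 0.880 in WT and 0.201 and 0.286 in SRSF1KO.

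**Figure D3:**
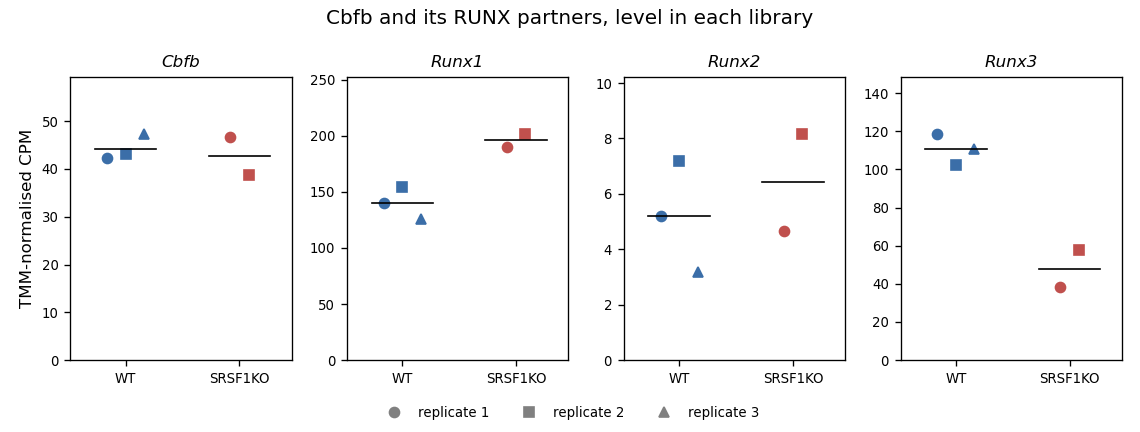
TMM-normalised CPM (y axes, linear from 0, own scale per panel) of Cbfb, Runx1, Runx2 and Runx3 in each WT (blue) and SRSF1KO (red) library, with black bars at group means. The groups overlap for Cbfb and Runx2, and do not for Runx1 (SRSF1KO above) or Runx3 (SRSF1KO below).

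DESeq2 called both Runx3 (adjusted p = 4.9e-07) and Runx1 (adjusted p = 0.00659), in these directions. For Runx3 the edgeR adjusted p was 0.0247 without SRSF1KO replicate 2, and between 0.143 and 0.236 without any other single library. Within libraries of the female pattern Runx3 differed by −0.99 and within those of the male pattern by −1.42 on the log2 scale. Runx2 was low in all libraries (3.19 to 8.17 CPM) and did not separate the groups. In bulk samples fewer cells with a transcript and less of it per cell cannot be told apart.

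The signalling regulators had small negative or positive estimates. Tgfbr2 (ENSMUSG00000032440.13, chromosome 9, 116087695 to 116175363) measured 178.4, 224.6 and 193.8 CPM in the WT libraries, against 145.7 and 181.5 CPM in the SRSF1KO libraries. SRSF1KO replicate 1 was the lowest library and replicate 2 lay among WT. Its log2 fold change of −0.28 ± 0.14 (SE; 95% interval −0.62 to 0.05; adjusted p = 0.424) was −0.13 without SRSF1KO replicate 1. Of 11 other TGF-β pathway genes 10 were tested, none was called (1 at an unadjusted p under 0.05), and the median was −0.15. Smad7, a feedback inhibitor of the pathway, measured 15.8, 31.5 and 11.3 CPM in the WT libraries, against 5.16 and 10.04 CPM in the SRSF1KO libraries. Both SRSF1KO libraries were below all WT libraries, and the WT values were themselves widely spread (log2 fold change −1.36 ± 0.50, adjusted p = 0.288). Ski, a corepressor of SMAD proteins, stood at −0.30 ± 0.25 (adjusted p = 0.676).

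Map3k7 (ENSMUSG00000028284.13, chromosome 4, 31963492 to 32023470) measured 19.8, 30.7 and 25.2 CPM in the WT libraries, against 33.3 and 25.8 CPM in the SRSF1KO libraries. It had the widest WT spread of the 10, a coefficient of variation of 21.8%, and the groups overlapped. The log2 fold change was 0.23 ± 0.24 (SE; 95% interval −0.34 to 0.80; adjusted p = 0.761). Ikbkb (ENSMUSG00000031537.15, chromosome 8, 22659205 to 22706589) measured 239.6, 251.0 and 196.5 CPM in the WT libraries, against 193.2 and 229.0 CPM in the SRSF1KO libraries. WT replicate 3 was close to SRSF1KO replicate 1, and the groups overlapped. Its log2 fold change was −0.12 ± 0.14 (SE; 95% interval −0.44 to 0.20; adjusted p = 0.788). None of 8 further genes of the TAK1 and IKK route was called (1 at an unadjusted p under 0.05), with a median of −0.06. Ikbkg (NEMO), the regulatory subunit of the IKK complex, was tight in both groups, at 67.5 ± 0.491 CPM (WT) against 52.7 ± 1.36 CPM (SRSF1KO), a log2 fold change of −0.36 ± 0.13 with an adjusted p = 0.267. Malt1, a protease of antigen receptor signalling, stood at 0.25 ± 0.16 (adjusted p = 0.536). Over all 7 partner lists edgeR called 0 of 43 genes tested, where 0.265% of all genes were called. At an unadjusted edgeR p under 0.05 were 10 of the 43, against 14.4% of all genes. DESeq2 called 4 of the 43 (Rbpj, Rbbp5, Runx1 and Runx3), where it called 5.83% of all genes.

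**Figure D4:**
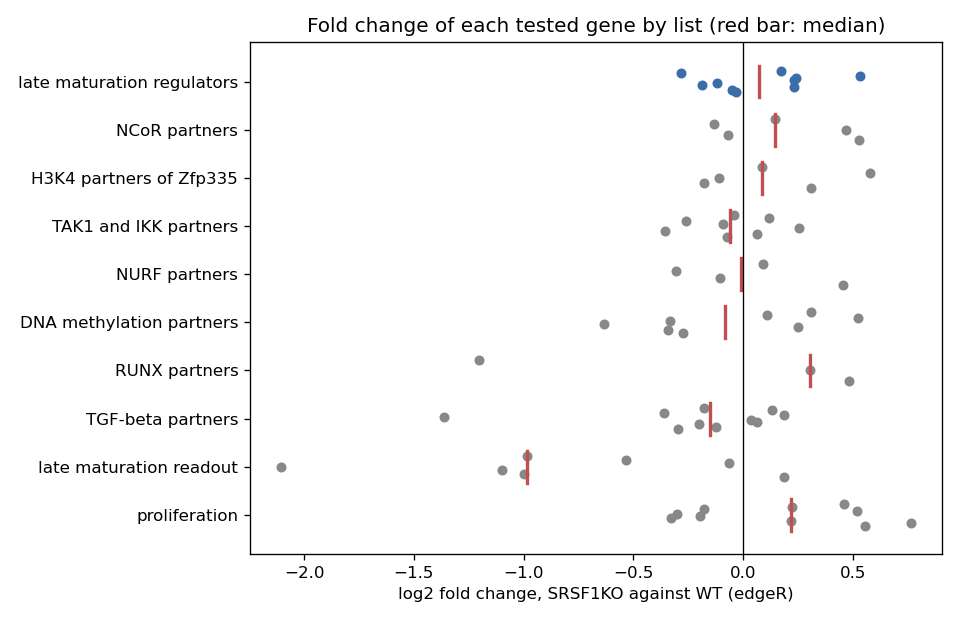
Log2 fold change of SRSF1KO against WT (x axis) for each tested gene of the regulators (blue) and of 9 further lists (grey), with red bars at list medians. The regulators lie between −0.28 and 0.53, while the readout list reaches −2.10 and has a median of −0.99.

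Genes that serve as readouts of late maturation mostly had negative estimates. Of 7 such genes (Klf2, S1pr1, Ccr7, Il7r, Bcl2, Foxo1, H2-Q7), 1 was called lower and 0 higher by edgeR, where 0.265% of all genes were called. Estimates were negative for 6 of the 7, against 8788 of the 17351 genes tested. The median log2 fold change of the 7 was −0.99. H2-Q7, which encodes the Qa-2 surface protein of mature thymocytes, fell to 37.3 ± 3.08 CPM (SD, n = 2) from 160.4 ± 24.7 CPM (SD, n = 3), with a log2 fold change of −2.10 ± 0.16 (edgeR, adjusted p = 0.00948). Its adjusted p was 0.0681, 0.0528 and 0.0895 without WT replicate 1, 2 or 3, with the log2 fold change between −2.16 and −1.97. In each of these settings edgeR called 0 genes of any kind. The log2 fold change of H2-Q7 was −2.02 without SRSF1KO replicate 1 and −2.17 without SRSF1KO replicate 2. Foxo1, a transcription factor upstream of egress genes, stood at 67.7 ± 8.80 and 31.6 ± 5.31 CPM (−1.10 ± 0.18, adjusted p = 0.0712). DESeq2 called 4 of the 7 lower (S1pr1, Ccr7, Foxo1 and H2-Q7) and 0 higher, where it called 5.83% of all genes. Reads of H2-Q7 can be shared with near-identical class I genes, so its value is less certain. The difference between regulators and readouts was not tested, since these lists were chosen with results known.

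Library features are given here for all values above, whether or not they differ between the groups. Within both sex patterns 7 regulators kept the same sign of difference, and 3 (Bptf, Cbfb and Ikbkb) had opposite signs. Tgfbr2 differed by −0.03 within the female and −0.62 within the male pattern. Genes of the gate were present in all libraries (10114 to 11810 CPM summed over 9 genes). Of the 9, edgeR called 0, where 0.265% of all genes were called. At an unadjusted edgeR p under 0.05 were 2 (Cd4 at 0.45 and Trac at −0.24), against 14.4% of all genes. DESeq2 called 1, Cd4 (adjusted p = 0.00484), where it called 5.83% of all genes. Cd69 was uneven in WT, at 203.5, 469.3 and 270.6 CPM, against 226.2 and 228.5 CPM in SRSF1KO. Of other cell types, 4 erythroid genes summed to 2.34 to 11.8 CPM in WT and to 19.7 and 89.7 CPM in SRSF1KO. The sum of 5 γδ T and NK cell genes was 29.8 to 39.3 CPM in WT and 47.7 to 59.7 CPM in SRSF1KO. Most of that sum was Trdc alone, at 27.5 to 32.1 CPM in WT and 56.9 and 43.9 CPM in SRSF1KO. Ncr1 and Eomes were at 0 counts in 3 and 4 libraries, and Klrb1c had a negative estimate (−0.17 ± 0.88). The erythroid genes Hbb-bt and Hba-a1 had log2 fold changes of 4.31 (95% interval 1.78 to 6.83) and 2.99 (95% interval 1.13 to 4.85), with adjusted p = 0.150 and 0.169, and Trdc and Sox13 of the γδ list 0.74 ± 0.18 and −0.57 ± 1.26 (adjusted p = 0.139 and 0.904). DESeq2 called Hbb-bt (adjusted p = 0.00408) and Trdc (adjusted p = 0.00679) higher. B cell (29.4 to 50.0 CPM over 5 genes) and myeloid (180 to 214 CPM over 7 genes) sums overlapped between groups, and thymic epithelial genes summed to 14.1 to 14.5 CPM in WT and 13.8 and 25.4 CPM in SRSF1KO over 5 genes, among which Foxn1 had at most 12 counts. In these 3 lists the genes with the smallest p, with their log2 fold changes, were Ms4a1 (0.69) and Cd79b (0.34), Siglech (0.97) and Itgax (−2.93), and Krt8 (1.54) and Epcam (0.33), none past the test. Their part in the regulator values was not tested.

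By the shape of its values over the 5 libraries, Nkap was nearest to Snupn, Frmd6 and Zkscan17 among 9931 other genes that averaged 5 CPM or more. The measure was the root mean square difference of centred log2 CPM, which was 0.03, 0.04 and 0.05. Snupn measured 13.3, 16.2 and 18.0 CPM in the WT libraries, against 18.4 and 26.1 CPM in the SRSF1KO libraries, in the same order of libraries as Nkap. Among the regulators Dnmt1 was closest to Nkap (0.22, rank 481) and Tgfbr2 farthest (0.42, rank 5676). The 5 points share libraries and scaling, and no p is given.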

How the data were processed

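RNA-seq of sorted thymocytes (3 WT and 2 SRSF1KO samples) was used, and 4 samples of CLIP-seq were left out. The deposited table holds raw read counts per gene, not normalised, for 53715 Ensembl IDs. Libraries followed Smart-seq2, per the labels' protocols. The submitters' processing notes name the build mm10 and, without roles, HTSeq 0.6.1, Bowtie2 2.1.0, DESeq2 1.20.0, HOMER 4.9.1, cutadapt 1.17, FastQC 0.11.5 and Trim Galore. The RNA-seq aligner, the annotation release and the strand setting were not given in the sources used here. Symbols came from a names table (53620 IDs matched), and coordinates and promoters from RefSeq GRCm38.p6.

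Differences were tested with edgeR 4.0.16 in R 4.3.3 (TMM, filterByExpr, robust glmQLFit and glmQLFTest, group as the only term, two-sided). Standard errors came from the log2 fold change and F, and 95% intervals from these and the test's degrees of freedom. Alternatives were other scalings and filters, DESeq2 1.42.0, limma-voom (limma 3.58.1), the replicate number as a block, the sex pattern as a term, and leaving out each library. Scripts were tested on simulated counts. The members and lists were chosen with earlier results of these data known. The text names all regulators and Srsf1, each list's called genes (up to 4) or those with the smallest p (up to 2), and the 3 genes nearest in pattern to the regulator with the smallest p. A few genes were taken out of the lists and are not reported here. Runx2 and others outside this rule were named after their values were seen. A library had the male pattern if Ddx3y was above 10 CPM. Within-pattern and likeness values use log2 CPM with a prior count of 2.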

Additional observations from a re-analysis of the deposited data

How the results depend on the processing

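No regulator was called in either direction under any of the 13 alternatives, and the lowest adjusted p of a regulator was 0.133 (Nkap, DESeq2). The absence of a regulator call says little where a setting called few genes of any kind. Over all genes edgeR called 0 with the replicate block and 0 without WT replicate 1, 2 or 3. It called 5 with the sex pattern as a term and 10 with DESeq2's size factors. Under the 8 alternatives that keep all libraries, all 10 kept their direction. With 1 library left out, 7 regulators kept theirs, while Bptf ranged from −0.19 to 0.13, Cbfb from −0.19 to 0.10 and Ikbkb from −0.23 to 0.0016 on the log2 scale. The median of the regulators was 0.01 without WT replicate 1 and at most 0.11 when another library was left out; the cause was not tested. Nkap ranged from 0.29 to 0.75 and Dnmt1 from 0.09 to 0.38. With 1 SRSF1KO library omitted, the lone one is taken to have the spread of the WT libraries.

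Over all genes the count of calls moved with the setting: 46 as reported, 10 with DESeq2's size factors, 544 without the filter (of 30741 genes), 376 at a mean of at least 5 CPM, 1011 with DESeq2, 83 with limma-voom and 5 with the sex pattern as a term. It was 0 without WT replicate 1, 2 or 3, 11 without SRSF1KO replicate 1 and 88 without SRSF1KO replicate 2. The share of higher calls was 19.6% as reported, 30% with DESeq2's size factors, 36.4% without the filter, 38% at a mean of at least 5 CPM, 37.8% with DESeq2 and 0% with the sex pattern as a term.

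With the replicate number as a block, edgeR called 0 genes and 0 regulators, Nkap stood at 0.64 (adjusted p = 0.459) and the median of the regulators was 0.07. The labels do not tie equal numbers to a shared animal or batch, so the numbers were not used to pair libraries. For replicates 1 and 2 the same-numbered libraries had opposite sex patterns. Deviations of same-numbered libraries correlated at −0.12 and −0.10 over 9932 genes. With 2 SRSF1KO libraries their deviations are mirror images, so these values are not separate evidence and cannot decide the pairing.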

Other observations

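Of the 10 proliferation genes, chosen as context for Dnmt1, 6 had a positive and 4 a negative estimate. Ccnb1, the cyclin of mitosis, stood at 66.4 ± 2.45 CPM in WT (SD, n = 3) and 112.5 ± 13.5 CPM in SRSF1KO (SD, n = 2), a difference of 0.76 ± 0.12 on the log2 scale (SE; edgeR, adjusted p = 0.0660). Top2a, a topoisomerase of dividing cells, stood at 264.4 ± 26.6 and 363.6 ± 14.0 CPM (0.46 ± 0.11, adjusted p = 0.136). Both SRSF1KO libraries lay above all WT libraries for 3 of the 10 (Ccnb1, Top2a and Ccna2), where 15.2% of all genes did, and below for 3 (Mcm2, Mcm5 and Pcna), where 17.8% did. The groups overlapped for the other 4 (Mki67, Mcm3, Cdk1 and Rrm2). Genes other than Ccnb1 and Top2a were named after their values were seen. Of the 10, edgeR called 0, with 5 at an unadjusted p under 0.05 (3 higher and 2 lower), against 14.4% of all genes. DESeq2 called 3 higher and 0 lower, where it called 5.83% of all genes.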
